A study of Saccharomyces cerevisiae with 6 samples.

Results

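Single-copy ribosomal protein genes were taken as the genes in the deposited table whose name is RPL or RPS followed by digits only, with no A or B suffix and without RPL30. This rule found 6 of the 239 genes in the table. RPL25, RPL28, RPL29, RPL32 and RPL39 encode proteins of the large ribosomal subunit, and RPS13 encodes a protein of the small subunit. All 6 systematic names matched the same symbol in the RefSeq gene table, where 0 of the 6 symbols has an A or B copy. They were compared with 92 ribosomal protein genes that carry an A or B suffix, called paired genes here, of which 49 belong to the large and 43 to the small subunit. The table holds both copies of 45 pairs and a single copy of 2 more.

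The study hybridised RNA of budding yeast to 2-colour arrays with separate features for exons, introns and exon junctions, standing per the labels for total, precursor and mature mRNA. Mutant cells carried the S2197F change in PRP8, and their wild type partners carried unchanged PRP8. In both, the chromosomal PRP8 gene was deleted and the remaining copy sat on a HIS-marked CEN plasmid, so neither is an ordinary chromosomal wild type. Cultures were kept at 37 °C in rich medium and collected at an OD600 near 0.7. There were 3 biological replicates, each a mutant and a wild type culture compared on 2 dye-swapped arrays, which count as 1 value. Every value below is a log ratio of mutant over wild type, taken as log2, so a value above 0 means more signal in the mutant, and the wild type level is 0. No source used here states the base of the logarithm, and each fold change depends on it. The number of replicates, n = 3, limits the precision of all values.

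Most yeast genes lack introns, but ribosomal protein genes often have 1, and because they are heavily transcribed they supply much of the work of the spliceosome. Prp8 sits at the catalytic core of that machine. An intron feature reports unspliced transcripts together with splicing intermediates and excised introns, a junction feature reports joined exons, and an exon feature reports both forms. The genome duplication of an ancestor left most yeast ribosomal proteins with paralogous genes, so a gene without a partner is the sole source of its protein. Rpl25, Rpl28, Rpl32 and Rps13 are essential for growth, while cells can live without Rpl29 or without Rpl39.

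The first question was whether the introns of these genes gave more signal in the mutant. RPL28, RPL32 and RPS13 did, and RPL25, RPL29 and RPL39 did not pass the test. Rpl28 is a large subunit protein known as the product of the cycloheximide resistance gene CYH2. Its intron ratios were 1.06, 0.74 and 1.10 in replicates 1, 2 and 3. All 3 lay well above 0, and the mean corresponded to a 1.95-fold rise (0.97 ± 0.16, SE, limma adjusted p = 0.015). Rpl32 is another protein of the large subunit. Its gene had intron ratios of 0.95, 0.65 and 0.64, a 1.68-fold rise (0.74 ± 0.16, SE, adjusted p = 0.023), with replicates 2 and 3 nearly alike. Rps13 contacts 18S ribosomal RNA in the small subunit. The intron of RPS13 gave 0.89, 0.42 and 0.79, a 1.63-fold rise (0.70 ± 0.17, SE, adjusted p = 0.029), with replicate 2 the lowest.

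The other 3 introns had smaller mean ratios. Rpl25 lies at the exit of the tunnel through which new proteins leave the ribosome, where targeting factors dock. RPL25 had intron ratios of 0.56, 0.30 and 0.35 (0.40 ± 0.16, SE, adjusted p = 0.10). These were all above 0, and the mean passed when each replicate was centred on its median exon ratio (0.54, adjusted p = 0.033). Rpl39 is a very small protein that lines the same tunnel. RPL39 had 0.77, 0.38 and -0.04 (0.37 ± 0.19, SE, adjusted p = 0.22), so its replicates spread over more than any other member's and 1 of them fell just under 0. Rpl29 is a small basic protein of the large subunit. RPL29 had 0.14, 0.39 and 0.47 (0.34 ± 0.16, SE, adjusted p = 0.17), and it was the single member with its lowest intron ratio in replicate 1. The sources used here do not say where the intron and junction features of RPL29 or of RPL32 lie. RefSeq gives RPL29 a span of 180 bases and RPL32 one of 393, the shortest of the 6. The others have 542 to 995. What the intron and junction values of RPL29 and RPL32 measure is thus less certain than for the other members.

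**Figure D1:**
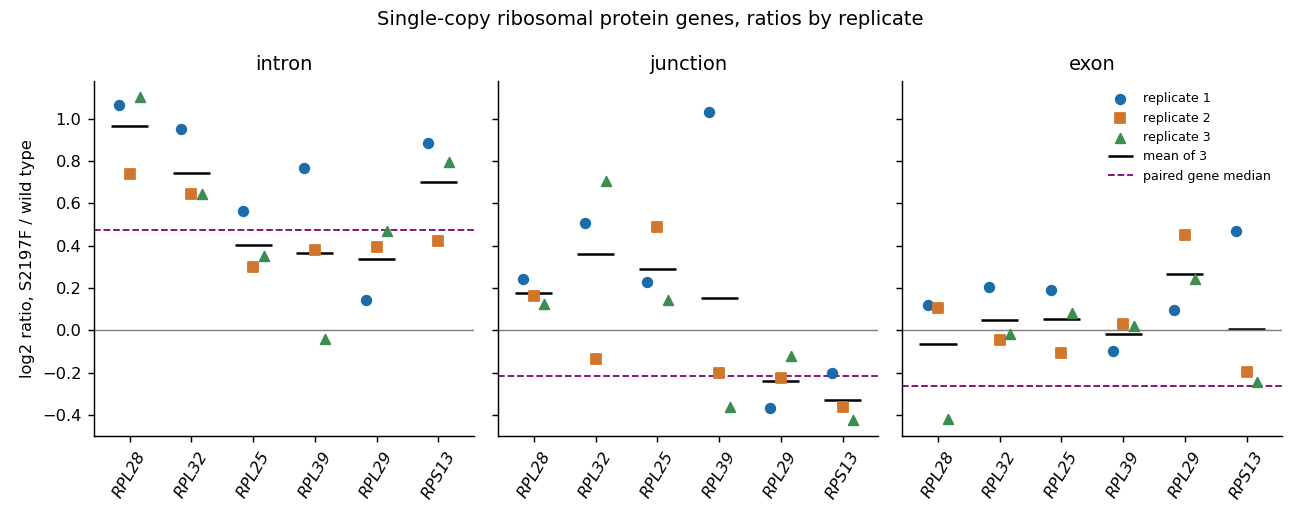
Log2 ratio of mutant over wild type (vertical axis) for the intron, junction and exon feature of the 6 single-copy ribosomal protein genes (horizontal axis). Points are the 3 replicates, black bars their mean, and the dashed line the mean over replicates of the paired gene median (0.47 for introns, -0.22 for junctions, -0.26 for exons). RPL28, RPL32 and RPS13 have the highest intron bars, and all 6 exon bars lie above the dashed line.

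Thus 3 of 6 members rose and 0 fell, where 23.5% of 251 intron features rose over the whole table. Among paired genes 41 of 94 intron features rose and 0 fell (43.6%), so the members' share was close to that of paired genes. At an unadjusted p under 0.05, 4 of 6 members were higher, beside 60 of 94 paired features and 90 of all 251. In all 3 replicates 5 of 6 members lay above 0, beside 76 of 94 paired features (80.9%) and 51.4% of all features with complete values. Of genes without an RPL or RPS name, called other genes here, 44 of 144 features did (30.6%). The calls rested on the replicates unequally. Without replicate 2 no member passed, although the means were 1.08 for RPL28, 0.79 for RPL32 and 0.84 for RPS13. In that setting 2 features of the whole table passed. Without replicate 1 RPL28 alone passed among the members, and RPL32 and RPS13 narrowly missed (adjusted p = 0.054 and 0.065). Without replicate 3 the same 3 genes passed.

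In the order of intron ratios, RPL28 stood above RPL32 by 0.22 ± 0.21 (SD over replicates) and in 3 of 3 replicates. RPL32 and RPS13 did not differ beyond their spread (0.04 ± 0.19, SD). RPS13 stood above RPL25 by 0.30 ± 0.16 (SD), again in 3 of 3 replicates. RPL25, RPL39 and RPL29 could not be ordered, since RPL25 exceeded RPL39 by 0.04 ± 0.32 and RPL39 exceeded RPL29 by 0.03 ± 0.57 (SD). The ends of the order, RPL28 and RPL29, were 0.63 ± 0.29 apart (SD), and the lowest replicate of RPL28 (0.74) was above the highest of RPL29 (0.47). With 3 differences the smallest two-sided p of an exact sign-flip test is 0.25, and these gaps are described by size and spread only.

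Set against paired genes, the introns of single-copy genes did not differ beyond the spread of the replicates. The median over members was 0.83, 0.41 and 0.56 in the 3 replicates, and that over paired genes was 0.56, 0.43 and 0.43. The difference was 0.27, -0.03 and 0.13 (0.12 ± 0.15, SD, n = 3, exact sign-flip test, two-sided p = 0.50). Of 91 paired genes with an intron value, 5 had a higher mean than RPL28, 15 than RPL32 and 20 than RPS13, while 58 exceeded RPL25, 64 exceeded RPL39 and 67 exceeded RPL29. The members thus spread over much of the paired range. When the paired median was subtracted in each replicate and every feature was refitted, 0 of 6 members differed from it by limma, beside 1.99% of all intron features. RPL28 was the nearest to the threshold (0.49 ± 0.16, SE, 0.50, 0.30 and 0.67 in the replicates, adjusted p = 0.11), and it was the 1 member with an unadjusted p under 0.05, beside 12 higher and 62 lower of all 251 features. Against genes without an RPL or RPS name the member median was higher by 0.87, 0.22 and 0.29 (0.46 ± 0.36, SD, exact sign-flip test, p = 0.25, the smallest it can give).

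**Figure D2:**
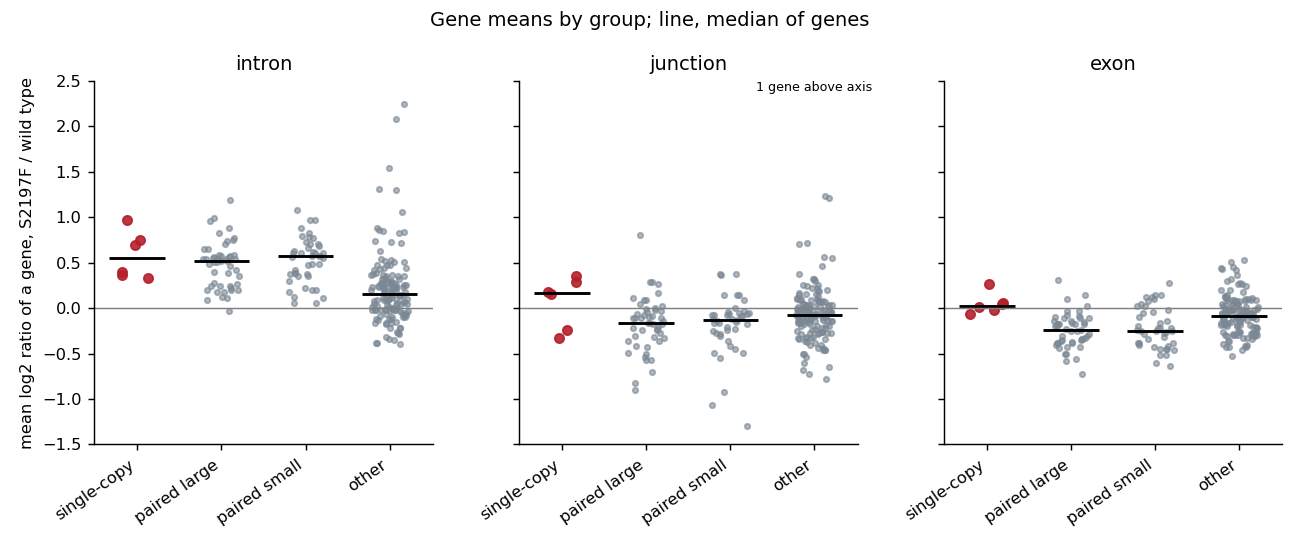
Mean log2 ratio over replicates of each gene (vertical axis) for introns, junctions and exons, by group (horizontal axis): the 6 single-copy genes in red, and paired large subunit, paired small subunit and other genes in grey. Black lines are medians of the gene means, and 1 junction mean of the other genes, at 4.99, lies above the axis. The red points lie within the paired genes for introns and at the upper end of them for exons.

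Among the 3 feature classes, the difference of replicate medians between single-copy and paired genes was largest for exon features, which follow total mRNA. This depends on the measure. Medians of the gene means were further apart for junctions (0.17 for members, -0.14 for paired genes) than for exons (0.03 and -0.24). No member passed against wild type by limma (0 of 6), as was so for 0% of 234 exon features, and 0 of 6 had an unadjusted p under 0.05, beside 4 higher and 26 lower of all 234 features and 21 lower of 92 paired genes. RPL29 had the highest exon ratios, 0.10, 0.45 and 0.24 (0.26 ± 0.16, SE, adjusted p = 0.46). It was the single member above 0 in every replicate (1 of 6), beside 3 of 92 paired genes (3.3%) and 6.4% of all exon features. RPL25 had 0.19, -0.11 and 0.08, and RPL32 had 0.20, -0.04 and -0.02. The means of both were close to 0, at 0.06 and 0.05. RPL39 had -0.10, 0.03 and 0.02, the narrowest spread of the 6. RPS13 had 0.47, -0.20 and -0.25, so its mean of 0.01 was set by replicate 1 and was -0.22 without it. RPL28 had 0.12, 0.10 and -0.42, so its mean of -0.06 was set by replicate 3 and was 0.11 without it. Over all exon features the median was -0.15, -0.07 and -0.19 in the 3 replicates, and when these were subtracted the means of RPL28 and RPL39 turned from below 0 to 0.07 and 0.12, so that all 6 were above 0.

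No member had an exon ratio below 0 in all 3 replicates (0 of 6), whereas 48 of 92 paired genes did (52.2%), as did 33.3% of all exon features. The member median was 0.16, -0.01 and 0.00015 in the 3 replicates, and the paired median was -0.24, -0.20 and -0.35. The difference was 0.40, 0.19 and 0.35 (0.31 ± 0.11, SD, n = 3), above 0 in 3 of 3 replicates and larger than the spread between them. The exact sign-flip test gave p = 0.25, the smallest it can give. Taken against the large subunit genes alone it was 0.33 ± 0.12, and against the small subunit genes 0.30 ± 0.10 (SD). By gene, between 2 and 19 of the 92 paired genes had a higher exon mean than a given member, fewest for RPL29 and most for RPL28.

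RPL25, RPL29, RPL32 and RPL39 were above the paired median in every replicate, which makes 4 of 6 members beside 12 of 92 paired genes (13.0%), 62 of 135 other exon features (45.9%) and 33.8% of all exon features. In the fit against the paired median 0 of 6 members passed, beside 0% of all 234 exon features, and 1 member had an unadjusted p under 0.05, beside 24 higher and 1 lower of all 234 features. That member was RPL29 (0.34, 0.65 and 0.60 in the replicates, 0.53 ± 0.16, SE, adjusted p = 0.24). The single-copy genes were not set apart from genes without an RPL or RPS name, where the difference of exon medians was 0.30, -0.05 and 0.09 (0.12 ± 0.17, SD). No member thus differed singly from the paired median by this test, and the difference of medians rests on 6 genes measured on the same arrays.

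**Figure D3:**
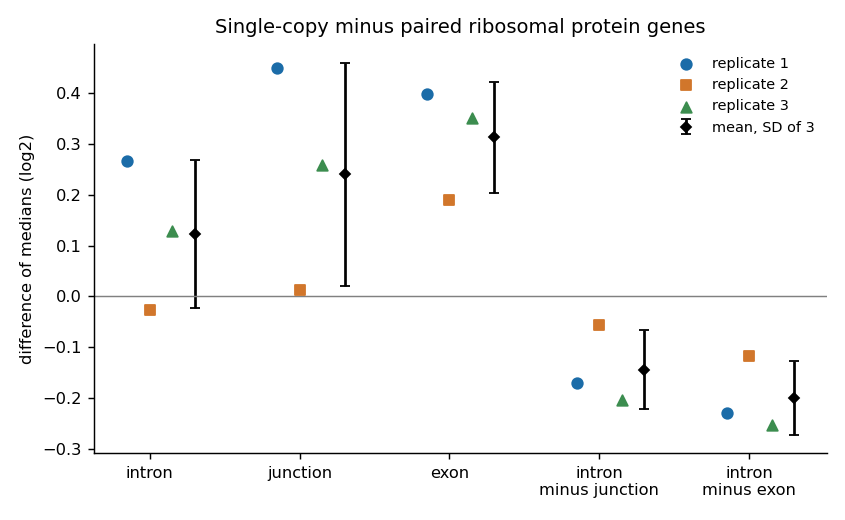
Difference between the median of the 6 single-copy genes and the median of the paired ribosomal protein genes (vertical axis, log2) for 3 feature classes and 2 within-gene differences (horizontal axis). Coloured points are replicates, and black diamonds with bars are mean and SD over the 3. Exon differences of 0.40, 0.19 and 0.35 are above 0 in each replicate, and both within-gene differences are below 0 in each.

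Junction signal, which follows spliced mRNA, varied more among the members. None of the 6 passed by limma against wild type (0 of 6), beside 0.403% of 248 junction features. At an unadjusted p under 0.05 there were 0 members, beside 4 higher and 29 lower of the 248. RPL28 gave the tightest values, 0.24, 0.16 and 0.12 (0.18 ± 0.15, SE, adjusted p = 0.68). RPL25 gave 0.23, 0.49 and 0.15 (0.29 ± 0.16, SE, adjusted p = 0.48). These 2 of 6 members were above 0 in every replicate, beside 3 of 86 paired features (3.5%) and 6.8% of all complete junction features. RPS13 was the lowest, with -0.20, -0.36 and -0.42 (-0.33 ± 0.16, SE, adjusted p = 0.40), and RPL29 followed with -0.37, -0.23 and -0.12 (-0.24 ± 0.16, SE, adjusted p = 0.55). Both were below 0 in every replicate, so the members did not share a direction.

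The remaining members were uneven between replicates. RPL32 had junction ratios of 0.51, -0.14 and 0.71 (mean 0.36). RPL39 had 1.03, -0.20 and -0.36, so its mean of 0.15 came from replicate 1 and was -0.28 without it. No neighbours in the order of junction means differed beyond their spread. The share of members below 0 in all replicates, 2 of 6, stood beside 35 of 86 paired features (40.7%) and 29.7% of all complete junction features.

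The median junction ratio of the members exceeded that of paired genes by 0.45, 0.01 and 0.26 (0.24 ± 0.22, SD, exact sign-flip test, p = 0.25, the smallest it can give). The value in replicate 2 was close to 0, and the mean difference was about as large as its spread. Of 92 paired genes, 4 had a higher junction mean than RPL32, 6 than RPL25, 7 than RPL28 and 8 than RPL39. The other members lay lower, as 60 paired genes exceeded RPL29 and 71 exceeded RPS13. RPL25, RPL28 and RPL32 lay above the paired median in every replicate, 3 of 6 members beside 22.4% of all features and 13 of 86 paired features (15.1%). After refitting against the paired median 0 of 6 passed, beside 0% of 248 features, although these same 3 had an unadjusted p under 0.05, as did 21 higher and 8 lower features of all 248. RPL25 had 0.44, 0.67 and 0.40 above it (0.51 ± 0.16, SE, adjusted p = 0.32), RPL28 had 0.46, 0.34 and 0.38 (0.39 ± 0.16, SE, adjusted p = 0.40), and RPL32 had 0.72, 0.04 and 0.96 (0.58 ± 0.20, SE, adjusted p = 0.36).

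The within-gene differences remove an offset that the feature classes of a replicate share, but not one of a single class. They ask how far intron signal moved relative to the junction or exon signal of the same gene. Intron minus junction was positive and passed for RPS13 and RPL28, 2 of 6 members, beside 21.1% of 247 features and 32 of 93 paired features (34.4%). RPS13 had 1.09, 0.78 and 1.22, a 2.04-fold change of the ratio (1.03 ± 0.28, SE, adjusted p = 0.0053), made of a raised intron and the lowest junction mean of the 6. RPL28 had 0.82, 0.58 and 0.98 (0.79 ± 0.28, SE, adjusted p = 0.033). RPS13 exceeded RPL28 by 0.24 ± 0.03 (SD) and did so in 3 of 3 replicates. The 2 are neighbours in an order made from these same values. Their gap was smaller than the SE of either mean and was not tested.

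RPL29 had the most even values of intron minus junction, 0.51, 0.62 and 0.59, yet did not pass (0.57 ± 0.28, SE, adjusted p = 0.13). The SEs of this quantity were nearly equal for all members, from 0.278 to 0.282, since limma's variance estimates for it were almost wholly shared between features (prior degrees of freedom 57.2). RPL32 had 0.44, 0.78 and -0.06, and RPL39 had -0.26, 0.58 and 0.32, so neither kept 1 sign. RPL25 was the lowest, with 0.33, -0.19 and 0.21 (0.12 ± 0.28, SE, adjusted p = 0.78), and 87 of 91 paired genes had a higher mean. Its intron and junction ratios were both positive and of similar size.

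Intron minus exon passed for RPL28, RPL32 and RPS13, 3 of 6 members, beside 29.3% of 246 features and 55 of 94 paired features (58.5%). RPL28 had 0.94, 0.63 and 1.52 (1.03 ± 0.24, SE, adjusted p = 0.0050). RPL32 had 0.74, 0.69 and 0.66 (0.70 ± 0.23, SE, adjusted p = 0.026), the most even of the 6. RPS13 had 0.42, 0.62 and 1.04 (0.69 ± 0.23, SE, adjusted p = 0.033). These are the same introns that rose against wild type, and the intron values are shared between the tests. RPL39 had 0.86, 0.35 and -0.06, and RPL25 had 0.37, 0.41 and 0.27, without passing. RPL29 was close to 0, with 0.04, -0.06 and 0.23 (0.07 ± 0.23, SE, adjusted p = 0.82), with an exon mean (0.26) close to its intron mean (0.34), and 89 of 91 paired genes exceeded it.

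**Figure D4:**
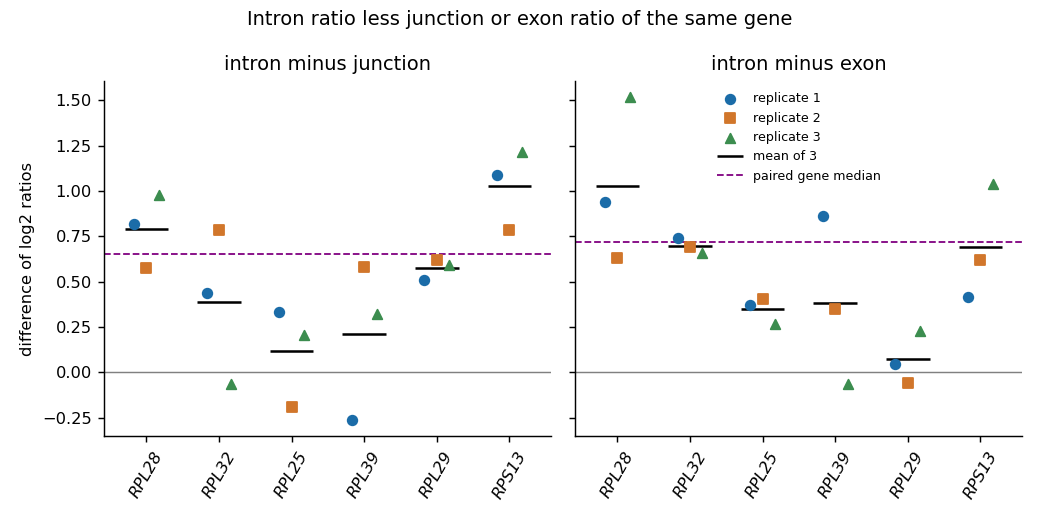
Intron ratio less junction ratio (left) and intron ratio less exon ratio (right) of each single-copy gene, in log2 units on the vertical axis. Points are replicates, bars means, and the dashed line is the mean over replicates of the paired gene median (0.65 left, 0.72 right). RPS13 is highest on the left at 1.03 and RPL28 on the right at 1.03, while RPL25 and RPL29 are lowest at 0.12 and 0.07.

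By these measures the single-copy genes stood a little under the paired genes. Intron minus junction had a member median of 0.47, 0.60 and 0.46 against 0.64, 0.66 and 0.66 for paired genes, a difference of -0.17, -0.06 and -0.20 (-0.14 ± 0.08, SD). Intron minus exon had 0.58, 0.51 and 0.46 against 0.81, 0.63 and 0.72, a difference of -0.23, -0.12 and -0.25 (-0.20 ± 0.07, SD). Each was below 0 in 3 of 3 replicates with an exact sign-flip p of 0.25, the smallest 3 values can give. Both take in the exon or junction values described above, so they are not separate evidence. RPL28 was the 1 member above the paired median of intron minus exon in 3 of 3 replicates, beside 19 of 91 paired genes (20.9%). For intron minus junction RPS13 was the 1 such member, beside 15 of 82 paired genes with complete values (18.3%). Members below the paired median in every replicate numbered 2 for intron minus exon and 3 for intron minus junction. The places of RPL28 and RPS13 were thus not rare among paired genes. Leaving out a replicate removed calls over the whole table. Without replicate 1 no member and 0 of 240 features passed for intron minus exon, and without replicate 3 no member and 2 of 240 features did for intron minus junction. RPL28 alone passed for intron minus exon without replicate 2 and again without replicate 3, and RPS13 alone for intron minus junction without replicate 1 and again without replicate 2.

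The profile of each member over its 9 ratios (3 classes in 3 replicates) was compared with 204 rows of other genes that had all 9, by Euclidean distance in log2 units. The closest match of any member was RPS13 to RPS7B, a paired small subunit gene, at a distance of 0.48, where the median row was 1.52 away. The mean ratios of RPS7B were 0.78 for the intron, -0.24 for the junction and 0.02 for the exon. RPS13 was next closest to RPS17A (0.74). RPL28 was closest to CPT1, a gene of phospholipid synthesis (0.75), and to the first row of RPL7A (0.83), and RPL32 to NOG2, a GTPase gene of large subunit assembly (0.95), and CPT1 (0.96). RPL25 was closest to ERD2, the receptor that retains proteins in the endoplasmic reticulum (0.77), and RPS10A (0.80). RPL29 was closest to IWR1, a nuclear import factor gene for RNA polymerase (0.69), and RPS30B (0.71), and RPL39 to RPL43B (0.89) and RPL42A (0.91). The matched rows included paired genes for 5 of the 6 members, all but RPL32, and the rows share the same arrays. Paired rows were common among the candidates, since 85 paired features had complete intron and junction values. The count of 5 is thus no sign of a likeness to paired genes.

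RPL30, the other RPL or RPS gene of the table with no suffix, was left out by the rule and belongs with genes known to regulate their own splicing. Its intron ratios were 0.04, 0.28 and 0.99 (0.44 ± 0.21, SE, adjusted p = 0.17), a wider spread than that of any of the 6. Its junction mean of -0.09 was inside the range of the members, and its exon mean of -0.08 was just under the lowest of them.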

How the data were processed

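Values came from the table of the whole series deposited by the authors. Its log ratios, taken as log2, were made by analysing each array together with its dye flip, giving 1 value per biological replicate, per the labels' descriptions. Not given in the sources used here are the image analysis, background correction, spot filters, centring and log base. The authors' means and the single-array values, which carry no gene names, were not used. Labels assign the 6 arrays to 3 replicates of independent cultures.

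Each feature measured in 2 or more replicates entered a two-sided one-sample limma fit against 0 (limma 3.58.1, R 4.3.3, moderated variances). A common fit held all 3 classes, rows with identical values counted once, and p was adjusted by Benjamini-Hochberg within a class, at a threshold of 0.05. Within-gene differences were fitted separately, and ratios minus the paired gene median in a further fit, in which that median is treated as exact. Medians take 1 value per gene, the mean of its rows (3 paired genes have 2 rows). The method was tested on simulated data with independent features, which cannot give the rate of false calls among features that share arrays. All members were named, with the 2 nearest rows of each. The rule also named the paired genes at the ends of the intron range, which are not reported here. Alternatives were each replicate left out, exon centring, separate fits, complete features, large subunit genes as the comparison, and rows in place of genes. The members, lists and tests were chosen with earlier results of these data known. No sequences were used here, and PRP8 itself was not analysed here.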

Additional observations from a re-analysis of the deposited data

How the results depend on the processing

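Leaving out 1 replicate changed the number of members called. For introns it ranged from 0 to 3 members, against 3 (2 to 47 features of the whole table, against 59). For intron minus junction it was 0 to 1, against 2 (2 to 36, against 52), and for intron minus exon 0 to 1, against 3 (0 to 57, against 72). The cause was not tested, although such fits have fewer samples. No member passed for junctions, exons or the paired gene median under any alternative (0 calls). Centring on the exon median raised the intron count to 4 members, and to 91 of 251 features against 59. The means that passed kept their sign in every alternative run. Signs changed for members that did not pass. The ranges without 1 replicate were -0.28 to 0.41 for the RPL39 junction, and for exons -0.013 to 0.14 for RPL25, -0.031 to 0.093 for RPL32, -0.039 to 0.025 for RPL39, -0.22 to 0.14 for RPS13 and -0.16 to 0.11 for RPL28. Exon centring turned RPL28 to 0.072 and RPL39 to 0.12. For RPL29 the range was -0.0066 to 0.14 for intron minus exon. Against the paired median, introns ranged from -0.23 to 0.0017 for RPL29 and -0.26 to 0.075 for RPL39, and junctions from -0.098 to 0.046 for RPL29 and -0.062 to 0.61 for RPL39. Without 1 replicate the difference between single-copy and paired medians was 0.052 to 0.20 for introns, 0.14 to 0.35 for junctions and 0.27 to 0.37 for exons. Each ratio already pairs a mutant with a wild type culture, so the one-sample fits keep that pairing and no further paired test was run. The tests of junctions and exons against the paired median, and all differences between group medians except that of introns, were chosen after seeing the data.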
